A study of Arabidopsis thaliana with 40 samples.

Results

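STZ and ORA47 are a pair of Arabidopsis genes for transcription factors that are known for rapid and short-lived induction by stress. They were chosen by name as the single-gene probe sets of a zinc finger gene and an ERF-type gene, after their log2 levels over the 16 groups of arrays had been seen. They are 2 of the 13356 genes that have a probe set paired with 1 gene on the array. STZ is locus AT1G27730, measured by probe set 261648_at, and ORA47 is locus AT1G74930, measured by probe set 262211_at. Since the pattern of levels chose the genes, their levels and differences are given as a description, with SDs and standard errors and with no p-value.

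The data were 40 hybridisations of leaf RNA from Arabidopsis thaliana to an Affymetrix array, in 3 sets that each had their own wild type, Col0. The aox1a set compared wild type (n = 3 arrays per condition) with lines 1 and 2 of the aox1a mutant (n = 2 per line and condition). The rpoTmp set had the same layout with lines 1 and 2 of the rpoTmp mutant, and the double mutant set compared wild type with aox1a:rpoTmp (n = 3 per genotype and condition). AOX1A encodes the alternative oxidase of mitochondria and RPOTMP an organelle RNA polymerase, and the comparisons asked how loss of either or both altered expression before and during stress. Each genotype was sampled untreated and after moderate light and drought (MLD). All plants grew at 22 °C with 16 h of light at 100 µE m-2 s-1 and 8 h of dark, and were watered every 2 days. Plants for MLD had no water from 4 days before they were moved to about 350 µE m-2 s-1, and leaves of treated and untreated plants were taken 4 days after the move. The protocol gives ages of 4 weeks for wild type and aox1a, 5 weeks for rpoTmp and 6 to 7 weeks for aox1a:rpoTmp. Other label fields give other ages, among them 5 weeks for the untreated and 4 weeks for the MLD arrays of the double mutant set, so age within that set is not settled by the labels. The labels do not say whether the arrays of a group came from separate plants, so their spread may be partly technical.

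STZ, also called ZAT10, is a C2H2 zinc finger protein that carries an EAR-type repression motif and is induced by high light, drought, salt, cold and wounding. ORA47 belongs to the DREB branch of the AP2/ERF family and is known as an activator of jasmonate biosynthesis genes after wounding. Both are early-response genes in Arabidopsis, whose transcripts rise soon after a stimulus and then decline, and calcium-dependent CAMTA factors are among the known regulators of such genes. One harvest 4 days into the treatment therefore samples these transcripts at a single point.

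Levels are log2 of the deposited intensity. The arrays had similar distributions, with a median of 4.54 to 4.75 and a 25th percentile of 2.47 to 2.61 on this scale, so a level near 2.5 to 3 lies at the dim end of the array. The ratio of 3′ to 5′ signal over the GAPDH controls, which reflects RNA integrity and labelling, was 2.69 to 4.10 in log2 over the 40 arrays. AOX1A had no single-gene probe set paired with it. RPOTMP was dim in all 16 groups (group means of 2.48 to 4.28), so the targeted genes give at most a weak check of the genotype labels. Untreated, RPOTMP was at 2.42 to 2.70 in rpoTmp (wild type 2.75 to 2.99) and at 2.53 to 2.58 in aox1a:rpoTmp (wild type 2.82 to 3.86). Under MLD it was at 2.56 to 3.56 in rpoTmp (wild type 2.78 to 2.96) and at 2.49 to 2.52 in aox1a:rpoTmp (wild type 2.55 to 2.64). RCA, the Rubisco activase gene of mesophyll, had group means of 14.01 to 14.54 and the guard-cell lineage gene FMA had 5.50 to 6.55. These were 1 of 6 mesophyll and 1 of 5 guard-cell markers with a single-gene probe set, and none of the 10 phloem, trichome and flower markers had one. In such bulk samples, fewer cells of a type and less RNA per cell cannot be told apart.

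Both genes stood highest in the same 6 arrays, the MLD arrays of the double mutant set, wild type included. STZ lay between 11.07 and 12.68 there and between 2.08 and 9.85 on the other 34 arrays. ORA47 lay between 9.95 and 11.04 on those 6 arrays and between 2.76 and 5.95 on the other 34. On the other 34 arrays the median was 5.68 for STZ, with a wide spread, and 3.22 for ORA47, with a narrow one. Ranked within each array, STZ moved between the 5.48 and 93.5 percentiles of all probe sets on the 34 arrays and reached 97.2 to 99.3 on the 6. ORA47 moved only between the 33.6 and 59.6 percentiles on the 34 arrays and reached 94.1 to 97.1 on the 6.

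**Figure D1:**
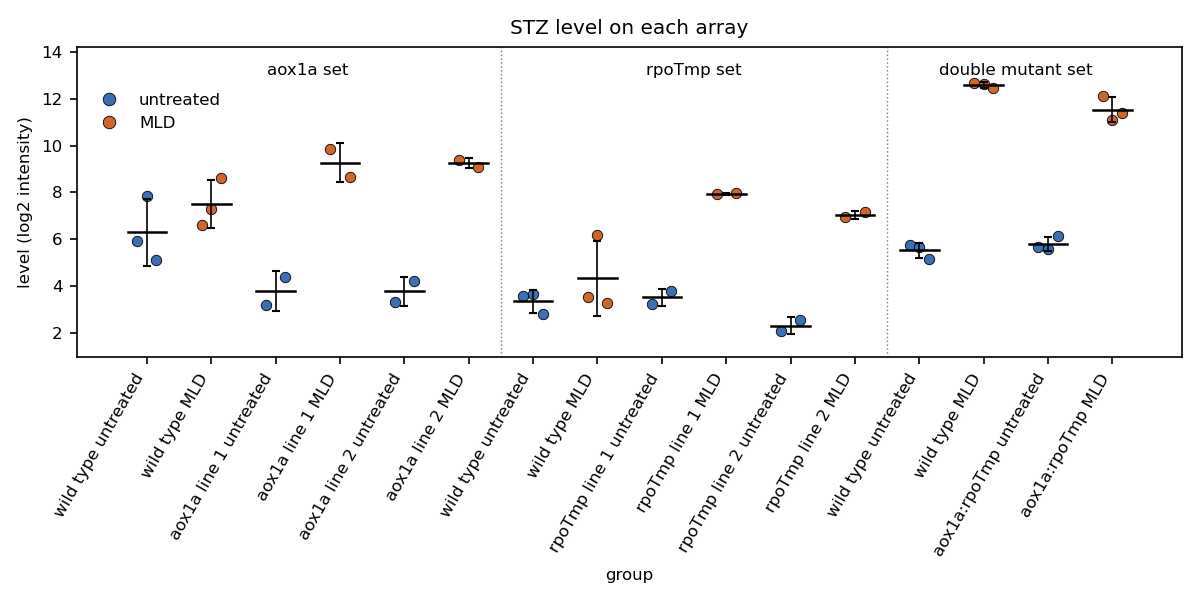
STZ level (log2 intensity, y axis) on every array of the 16 groups (x axis), with blue points untreated and orange points MLD; horizontal bars are group means and error bars SDs (n = 2 or 3). Both aox1a lines and both rpoTmp lines are higher under MLD than untreated without overlap, and the 6 MLD arrays of the double mutant set lie above all others.

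**Figure D2:**
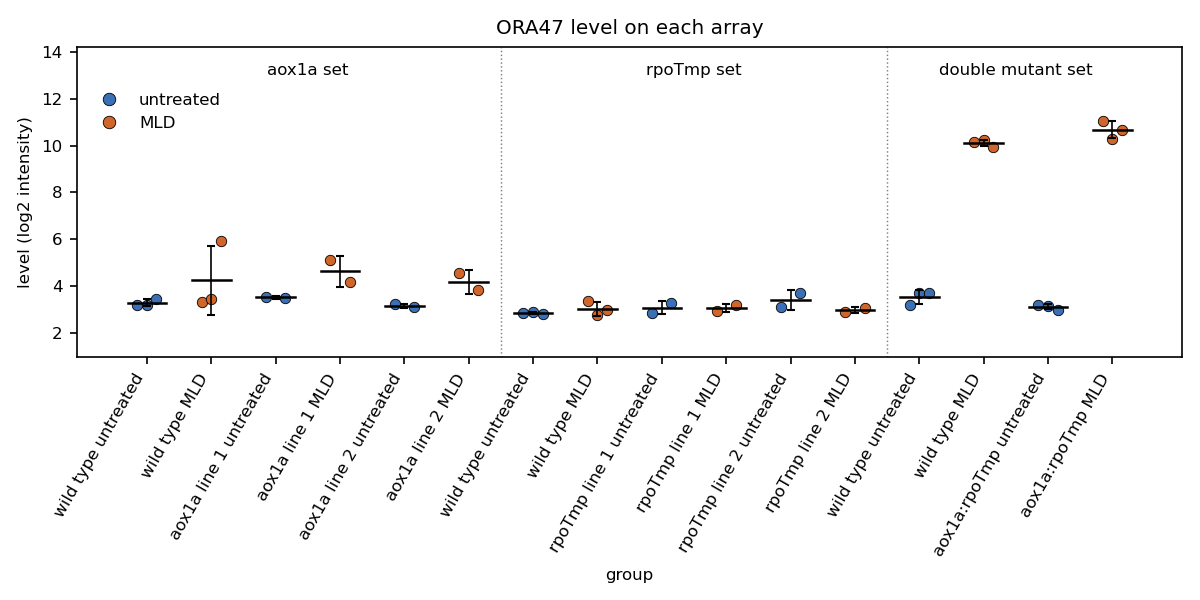
ORA47 level (log2 intensity, y axis) on every array of the 16 groups (x axis), drawn as for STZ. All arrays but the 6 MLD arrays of the double mutant set lie at or below 5.95, with a single wild-type MLD array of the aox1a set at that value.

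In the aox1a set, STZ was at 5.92, 7.86 and 5.11 in untreated wild type and at 6.61, 7.30 and 8.60 in wild type under MLD. These arrays overlapped, and the difference of 1.21 ± 0.77 (SE) in log2 was of the size of the spread among replicates. In untreated aox1a, STZ was at 3.20 and 4.40 in line 1 and at 3.35 and 4.21 in line 2. All 4 mutant arrays were below all 3 wild-type arrays, by 2.51 ± 0.72 on the log2 scale on average. Under MLD, STZ was at 9.85 and 8.68 in line 1 and at 9.40 and 9.10 in line 2, above all 3 wild-type arrays by 1.75 ± 0.72. The order of the genotypes was thus turned between the conditions. The response of the mutant, MLD minus untreated, was 5.47 ± 0.66, and it exceeded the response of wild type by 4.26 ± 1.01. Untreated aox1a levels were below the array medians, so the size of these values depends on how dim signals were handled: with log2(value + 16) the mutant's response was 4.37.

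These STZ differences were far from the centre of all probe sets. STZ was chosen after its levels had been seen, so its ranks are a description and no support. Among 22746 probe sets, the deficit in untreated aox1a ranked 17 from the lowest and the response of the mutant ranked 28 from the highest. The excess of the mutant's response over that of wild type ranked 13 from the highest. Groups without overlap are common in comparisons this small: 12.1% of probe sets were lower without overlap in untreated aox1a, 16.6% were higher without overlap in aox1a under MLD, and 24.4% were higher without overlap in the mutant's MLD response. One array, untreated wild type replicate 2, held the highest untreated STZ level at 7.86. Without it the deficit in untreated aox1a was 1.73 rather than 2.51, and the mutant arrays still lay below the remaining wild-type arrays.

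In the rpoTmp set, STZ started low in every genotype. Untreated wild type was at 3.60, 3.67 and 2.81, line 1 of rpoTmp at 3.27 and 3.78, and line 2 at 2.08 and 2.57. Line 2 lay below line 1, while the lines averaged overlapped wild type (-0.43 ± 0.61). Under MLD, wild type gave 3.52, 6.19 and 3.29, with 1 array of 3 well above the untreated range. The wild-type difference of 0.97 ± 0.65 rested on that array: without replicate 2 it was 0.045. The mutant reached 7.92 and 7.98 in line 1 and 6.93 and 7.16 in line 2, each above every wild-type array under MLD.

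Averaged over the lines, STZ in rpoTmp under MLD was 3.16 ± 0.61 above wild type in log2, and 4.09 above it when wild-type replicate 2 was left out. For scale, 17.7% of probe sets were higher without overlap in this comparison. The STZ response within rpoTmp was 4.57 ± 0.56, where 15.9% of probe sets were higher without overlap. It exceeded the wild-type difference by 3.60 ± 0.86. Untreated STZ lay at the dim end of these arrays, and with log2(value + 16) the response was 3.03 and the excess 2.45, so their size is not firm. The line means were 3.52 untreated and 7.95 under MLD in line 1, and 2.33 and 7.05 in line 2.

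In the double mutant set, STZ was far higher under MLD in both genotypes. Untreated wild type was at 5.76, 5.68 and 5.16 and untreated aox1a:rpoTmp at 5.68, 5.58 and 6.13, with overlap and a difference of 0.26 ± 0.26. Under MLD, wild type was at 12.68, 12.63 and 12.46, the highest 3 STZ values of the series. The double mutant was at 12.11, 11.07 and 11.41, below all 3 wild-type arrays. The wild-type response was 7.06 ± 0.26, or 133-fold, and the double mutant's response was 5.73 ± 0.26, or 53.2-fold. The mutant's level under MLD was lower by 1.06 ± 0.26 and its response smaller by 1.32 ± 0.37.

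The direction of the STZ difference between mutant and wild type under MLD therefore differed among the sets: higher in aox1a and in rpoTmp, lower in aox1a:rpoTmp. In the double mutant set, 21.0% of probe sets were higher without overlap in wild type under MLD, 14.9% were higher without overlap in the mutant's response and 28.3% were lower without overlap in the mutant under MLD. The wild-type MLD level against which each mutant is set also differed, with means of 7.50 ± 1.01 in the aox1a set, 4.33 ± 1.61 in the rpoTmp set and 12.59 ± 0.12 in the double mutant set (SD, n = 3 each). Untreated wild type differed between sets too, at 6.30 ± 1.41, 3.36 ± 0.48 and 5.53 ± 0.32.

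ORA47 in the aox1a set was somewhat higher on some MLD arrays. Untreated wild type was at 3.21, 3.21 and 3.46, and the untreated aox1a lines were at 3.56 and 3.49 (line 1) and 3.23 and 3.12 (line 2). Under MLD, wild type was at 3.35, 3.46 and 5.95, and the wild-type difference of 0.96 ± 0.62 rested on the third array: without replicate 3 it was 0.11. The aox1a lines under MLD were at 5.10 and 4.18 (line 1) and at 4.55 and 3.83 (line 2), all above the untreated mutant arrays and within the wild-type MLD range. The mutant's response was 1.06 ± 0.53, against 5.47 for STZ on the same arrays. The ORA47 responses of mutant and wild type differed by 0.10 ± 0.81, less than the standard error. Untreated and under MLD, the mutant's ORA47 level differed from that of wild type by 0.06 ± 0.58 and 0.16 ± 0.58, with overlap in both.

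In the rpoTmp set, ORA47 was dim on every array, and with the lines averaged each of its comparisons overlapped. All 14 arrays lay between 2.76 and 3.71. Wild type went from 2.84, 2.89 and 2.83 to 3.36, 2.76 and 3.00 under MLD, a difference of 0.19 ± 0.19. The rpoTmp lines went from 2.88 and 3.28 (line 1) and 3.11 and 3.71 (line 2) to 2.96 and 3.20 and to 2.89 and 3.08, a difference of -0.21 ± 0.17. Taken by itself, untreated line 2 was above untreated wild type and above its own MLD arrays, all at this dim level. The share of probe sets with such a separation in a single line was not counted. On these same arrays the STZ response in rpoTmp was 4.57. Between rpoTmp and wild type, ORA47 differed by 0.39 ± 0.18 untreated and by -0.01 ± 0.18 under MLD, and the responses by -0.40 ± 0.25.

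In the double mutant set, ORA47 lay at the dim end of the array in untreated leaves and among its bright probe sets under MLD. Untreated wild type was at 3.22, 3.71 and 3.70 and untreated aox1a:rpoTmp at 3.19, 3.18 and 3.01. Under MLD, wild type was at 10.16, 10.22 and 9.95 and the double mutant at 11.04, 10.30 and 10.68. The wild-type response was 6.56 ± 0.19 and the double mutant's response 7.54 ± 0.19. The latter ranked 5 from the highest of 22746 probe sets and the former 64. These ranks are a description, since ORA47 was chosen after its levels had been seen. Since untreated ORA47 lay near the dim end of the array, the size of these responses depends on how dim signals were handled: with log2(value + 16) they were 5.33 and 6.06.

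ORA47 and STZ differed in opposite directions between the genotypes of this set. Under MLD, ORA47 was higher in the double mutant by 0.56 ± 0.19 (22.1% of probe sets were higher without overlap), whereas STZ was lower by 1.06. Untreated, ORA47 was lower in the double mutant by 0.42 ± 0.19, with no overlap (20.9% of probe sets were lower without overlap), though all these levels were dim. The double mutant's ORA47 response exceeded that of wild type by 0.98 ± 0.27, while its STZ response was smaller by 1.32.

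**Figure D3:**
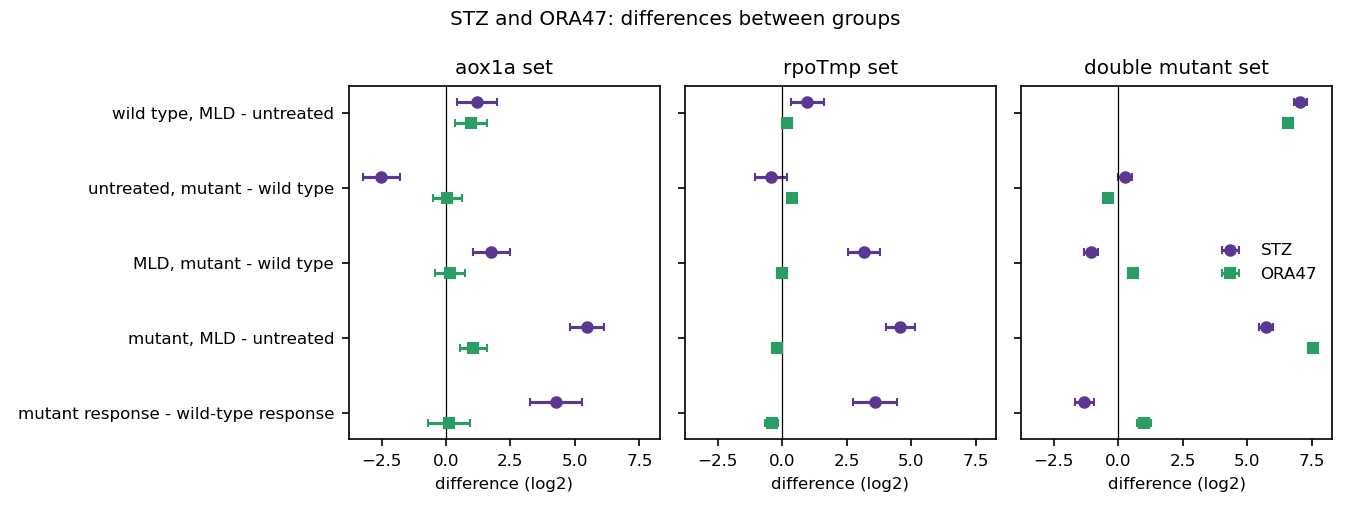
Differences in log2 level of STZ (purple circles) and ORA47 (green squares) in the 5 comparisons of each set (y axis), with error bars for the SE of the limma fit. STZ responses in aox1a (5.47) and rpoTmp (4.57) lie far to the right of the wild-type responses, and in the double mutant set both genes have responses of 5.73 or more in both genotypes, with opposite signs in the bottom comparison.

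The control-gene 3′ to 5′ ratio moved with some of these groups. It was 3.60 ± 0.10 in untreated wild type, 4.02 ± 0.12 in MLD wild type, 3.21 ± 0.07 in the untreated double mutant and 3.33 ± 0.26 in the MLD double mutant of that set (SD, n = 3). MLD wild type, with the highest STZ, had the highest ratio of the 16 groups. The double mutant under MLD, whose ratio of 3.06 to 3.57 lay within the range of the other sets, had ORA47 at 10.30 or above and STZ at 11.07 or above. In the rpoTmp set the ratio was also higher under MLD than untreated in both mutant lines, without overlap, beside the STZ response of 4.57 and the listed genes that rose there. It was 3.09 to 3.22 untreated and 3.51 to 3.89 under MLD in line 1, and 3.03 to 3.21 and 3.45 to 3.51 in line 2. In wild type of the rpoTmp set it was 3.01 to 3.38 untreated and 3.21 to 3.82 under MLD. The aox1a set, with an STZ response of 5.47 in the mutant, did not share this rise in both lines. Line 1 of aox1a had ratios of 2.72 to 2.73 untreated and 2.69 to 3.58 under MLD. Line 2 had 3.18 to 3.75 untreated and 2.70 to 3.16 under MLD. The part of the ratio in these differences was not tested.

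Ordered by mean, the 16 groups of STZ ran from 12.59 ± 0.12 in MLD wild type of the double mutant set down to 2.33 ± 0.35 in untreated line 2 of rpoTmp. Of the 15 pairs of neighbours in that order, 4 were free of overlap between arrays and 11 overlapped. The steps without overlap were below MLD wild type of the double mutant set and below the MLD double mutant (11.53 ± 0.53). The others were below line 2 of aox1a under MLD (9.25 ± 0.21) and above the last group. The order was made from these same values, and groups of 2 or 3 arrays often separate, so such counts are a description. The lines of aox1a under MLD, at 9.26 ± 0.83 and 9.25 ± 0.21, did not differ beyond their spread. The order of ORA47 began with the MLD double mutant (10.67 ± 0.37) and MLD wild type of that set (10.11 ± 0.14) and then dropped by 5.47 to line 1 of aox1a under MLD (4.64 ± 0.66). It too had 4 neighbour pairs without overlap and 11 with overlap, and 11 of its groups had means between 2.85 and 3.54. In the lowest of these 4 pairs, the lowest array of rpoTmp line 2 under MLD was at 2.891. The highest untreated wild-type array of that set was at 2.888.

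Other genes of the stress programmes to which STZ and ORA47 belong were taken from lists of relatives, rapid stress genes, calcium and touch genes, CAMTA-type upstream regulators, jasmonate synthesis and response, dehydration response, antioxidants and clock. Of 176 listed genes, 31 had a single-gene probe set, and none of the 9 antioxidant genes did. Of the 31, 12 carry no symbol in the gene table and are given by locus. These genes were tested with limma over all probe sets, with Benjamini-Hochberg adjustment and a threshold of 0.05. The lists were chosen with earlier results of these data known. Their counts and adjusted p-values are therefore a description and no independent support.

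In wild type of the double mutant set, where both regulators were highest under MLD, 22 of the 31 listed genes rose under MLD and none fell. Across the array 42.5% of probe sets passed this test, 18.3% as higher and 24.2% as lower. The median difference over the 31 was 1.95, against -0.04 over all probe sets. All 5 rapid stress genes rose, led by PUB23 (5.86 ± 0.60, adjusted p = 3.42e-05) and WRKY22 (4.83 ± 0.57, adjusted p = 8.27e-05). PUB23 is a U-box ubiquitin ligase and WRKY22 a transcription factor of immune and stress signalling. Of 7 genes on the calcium and touch list 5 rose, among them CML38 (8.49 ± 0.41, adjusted p = 6.9e-07) and CML37 (7.72 ± 0.24, adjusted p = 1.24e-07), which encode calmodulin-like proteins. All 3 loci of the upstream list rose, by 0.29 to 1.95.

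Among jasmonate genes of that comparison, OPCL1, which activates a precursor for the last steps of jasmonate synthesis, rose by 4.40 ± 0.23 (adjusted p = 1.07e-06). It was the only 1 of 14 listed jasmonate synthesis genes with a single-gene probe set. JMT, which makes methyl jasmonate, rose by 2.91 ± 0.23 (adjusted p = 6.47e-06), while the defensin genes PDF1.2 and PDF1.2b were not called. The dehydration genes LTI30 and COR47, which encode dehydrins, and COR15A, a chloroplast cold-response gene, rose by 2.97, 2.21 and 1.84. Of the 22 calls, WRKY6 was lost in 3 of the 12 fits that each left out 1 array (adjusted p up to 0.0601) and PUB22 in 1 (adjusted p up to 0.0530), and the other 20 were kept in all 12.

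The MLD response of these genes differed between the double mutant and wild type for 21 of 31, where 32.6% of probe sets were called, 16.8% higher and 15.9% lower. It was lower in the mutant for 18 and higher for 3, with a list median of -1.21 against 0.00 over all probe sets. Of the 18, 17 had risen in wild type, and their response was smaller (or turned) in the mutant. The other, AT3G60580, had means of 2.96 untreated and 2.97 under MLD in wild type and fell in the mutant only. STZ lay on the side of the many and ORA47 on that of the few. CML38 responded less by 4.10 ± 0.58 (adjusted p = 0.000535) and OPCL1 by 2.83 ± 0.33 (adjusted p = 0.000181), while COR47 rose by 2.21 in wild type and fell by 1.56 in the mutant, a difference of -3.76 ± 0.56 (adjusted p = 0.000669). The 3 with the larger response were CML23 (1.96 ± 0.13, adjusted p = 1.56e-05), the ERF-list locus AT1G19210 (1.40 ± 0.38, adjusted p = 0.0182) and PDF1.2b (2.57 ± 0.55, adjusted p = 0.00534). Of these 21 calls, MYC3 was lost in 8 of 12 fits with 1 array left out (adjusted p up to 0.0798), and the rest were kept. The OPCL1 level under MLD was 10.16 in the double mutant and 13.40 in wild type, on arrays whose ORA47 means were 10.67 and 10.11.

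**Figure D4:**
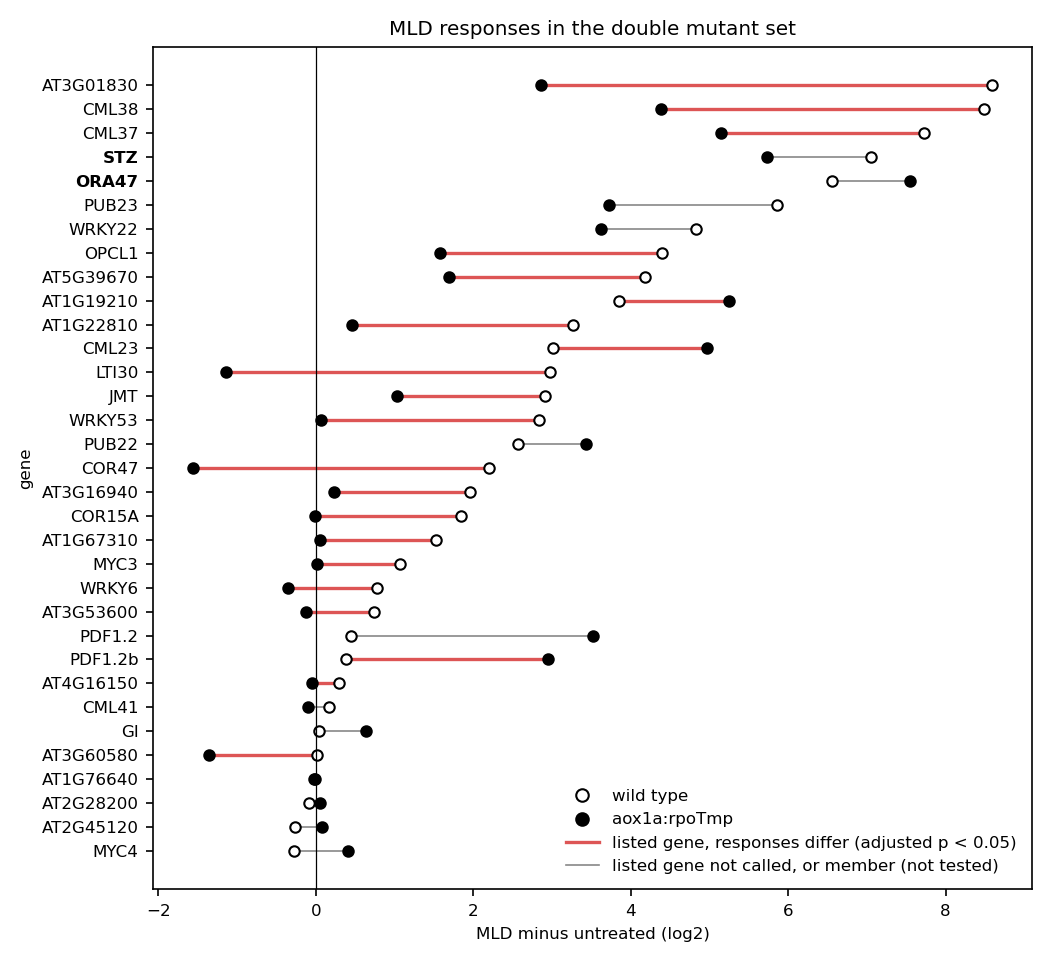
MLD minus untreated difference (log2, x axis) of STZ, ORA47 and the 31 listed genes (y axis, ordered by the wild-type response) in wild type (open circles) and aox1a:rpoTmp (filled circles) of the double mutant set. Red lines join the responses of listed genes that differ at an adjusted p under 0.05, which run to the left in 18 and to the right in 3.

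Before stress the double mutant differed from wild type in 8 of the 31 genes, 6 higher and 2 lower, where 19.7% of probe sets were called, 10.1% higher and 9.61% lower. Of the calcium and touch list, AT3G01830 (3.32 ± 0.37, adjusted p = 0.000346) and CML38 (2.07 ± 0.41, adjusted p = 0.00697) were higher, and the clock gene GI was lower (-0.93 ± 0.16, adjusted p = 0.00273). AT3G60580 of the zinc finger list was higher by 1.58 (adjusted p = 2.65e-05), a call kept with any 1 array left out. Its untreated means were 4.54 in the mutant and 2.96 in wild type. STZ and ORA47 differed there by 0.26 and -0.42. WRKY53, WRKY6, JMT and COR15A, also among the 8, were lost in 3, 4, 3 and 8 of the 12 fits with 1 array left out. Under MLD, 19 of 31 genes differed between the genotypes, 15 lower and 4 higher in the mutant, where 18.8% of probe sets passed as higher and 17.1% as lower, 35.9% in all. The calls of CML41 and AT5G39670 were lost in 11 and 8 of the 12 fits. Within the double mutant 14 rose and 2 fell, where 10.2% of probe sets passed as higher and 11.9% as lower, 22.0% in all. The 14 included CML37 (5.15), CML23 (4.97) and PUB23 (3.73). The 2 that fell were COR47 (-1.56, lost in 1 of the 12 fits) and AT3G60580 (-1.36). AT3G60580 fell from its raised untreated mean to 3.19 under MLD.

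In the aox1a set, wild type under MLD showed 2 called genes of 31, LTI30 (2.23 ± 0.43, adjusted p = 0.0319) and COR15A (1.97 ± 0.40, adjusted p = 0.0353), both higher, where 3.35% of probe sets were called, 2.08% higher and 1.27% lower. LTI30 was lost in 5 and COR15A in 9 of the 14 fits with 1 array left out, and both at once without wild-type MLD replicate 1, wild-type MLD replicate 3 or untreated wild-type replicate 1. Both were among the 22 of 31 listed genes (71.0%) that rose in wild type of the double mutant set, on other arrays. All 3 measured dehydration genes rose there, so this overlap is a description. In the aox1a mutant, where the STZ response was 5.47, 14 genes rose and 6 fell, and 52.0% of probe sets were called, 24.8% higher and 27.2% lower. CML41 rose by 3.41 ± 0.53 (adjusted p = 0.000729), CML38 by 2.76 ± 0.31 (adjusted p = 0.000168) and WRKY53, a senescence and stress transcription factor, by 2.25 ± 0.34 (adjusted p = 0.000624). PDF1.2, a jasmonate- and ethylene-responsive defensin, fell by 6.15 (adjusted p = 2.97e-05) and PDF1.2b by 3.03 (adjusted p = 7.05e-05). The other 4 falls, of AT3G53600, AT1G76640, CML37 and AT3G60580, were small (-0.05 to -0.14) and at dim levels of 2.12 to 3.16. OPCL1 rose by 1.07 ± 0.30 (adjusted p = 0.0139), and this call was lost in 2 of the 14 fits. Of the 20 calls, 15 were kept with any 1 array left out.

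Before stress, 5 of the 31 listed genes differed in aox1a, 2 higher and 3 lower, where 6.85% of probe sets were called, 3.28% higher and 3.57% lower. PDF1.2b was higher by 2.61 ± 0.30 (adjusted p = 0.00985), and of the 5 it was the only call kept with every array left out in turn. The 3 lower were AT3G16940, MYC3 and AT1G67310 (-1.30, -1.18 and -1.05), lost in 11, 12 and 11 of 14 fits. Under MLD 3 genes differed, all higher in the mutant, where 12.4% of probe sets were called, 6.26% higher and 6.14% lower. They were CML41 (2.77 ± 0.57, adjusted p = 0.0157), AT2G28200 of the zinc finger list (1.66 ± 0.41, adjusted p = 0.0321) and CML38 (1.50 ± 0.34, adjusted p = 0.0229), lost in 2, 6 and 4 of the 14 fits and all at once without wild-type MLD replicate 1. The response of 11 genes differed between aox1a and wild type, 8 upward as for STZ and 3 downward, where 22.4% of probe sets were called, 12.5% higher and 9.89% lower. Of these 11 calls, 3 were kept with any 1 array left out, and with line 2 alone limma called 0 of 31, with 9 at an unadjusted p under 0.05.

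In wild type of the rpoTmp set, limma called none of the 31 listed genes under MLD, with 4 at an unadjusted p under 0.05, 2 called in a fit over all 40 arrays and 3.61% of probe sets called. In untreated rpoTmp it called none either, with 1 at an unadjusted p under 0.05, 1 called in the fit over 40 arrays and 1.55% of probe sets called. Within rpoTmp, where the responses of STZ and ORA47 were 4.57 and -0.21, 11 listed genes rose and 2 fell, and 34.7% of probe sets were called, 18.0% higher and 16.7% lower. CML41 rose by 3.70 ± 0.43 (adjusted p = 0.000134), AT2G28200 by 2.15 ± 0.34 (adjusted p = 0.00092) and GI by 1.94 ± 0.23 (adjusted p = 0.000168), while PDF1.2 fell by 4.56 (adjusted p = 0.00316). Of these 11 genes, 10 were among the 14 that rose in aox1a, which is 90.9% of the rpoTmp list and 71.4% of the aox1a list, on separate arrays. Over all probe sets, 3362 rose in both, which is 82.0% of the 4098 that rose in rpoTmp and 59.5% of the 5647 that rose in aox1a. With 1 array left out, WRKY53, AT5G39670 and AT4G16150, also among the 11, were lost in 9, 5 and 6 of 14 fits.

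Under MLD, 9 listed genes differed between rpoTmp and wild type, 7 higher and 2 lower, where 30.0% of probe sets were called, 15.7% higher and 14.3% lower. CML41 was higher by 3.55 ± 0.46 (adjusted p = 0.000388), GI by 2.11 ± 0.25 (adjusted p = 0.000234) and COR47 by 1.43 ± 0.30 (adjusted p = 0.00528), all kept with any 1 array left out. GI follows the time of day, which the labels do not give for the harvests. PDF1.2 and COR15A were lower (-3.32 and -2.04), and each was lost when some arrays were left out (6 and 4 of 14 fits). Among the 7 higher, WRKY22, at a dim level, was lost in 10 of the 14 fits and MYC3 in 1. The MLD response of 5 genes differed from that of wild type, 4 upward and 1 downward, where 6.91% of probe sets passed as higher and 8.03% as lower, 14.9% in all. With line 1 alone limma called 0, with 7 at an unadjusted p under 0.05. AT1G67310, AT3G16940 and PDF1.2 were lost in 11, 9 and 7 of the 14 fits with 1 array left out. The 4 upward, CML41, COR47, AT3G16940 and AT1G67310, were all among the 8 upward in aox1a. The share of all probe sets upward in both was not counted, so this overlap is a description.

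Likeness to each gene was measured as Pearson's r over the 16 group means among 2335 single-gene probe sets whose group means spanned at least 2 and reached at least 7. These means share the arrays, the sets and one normalization, so r is a description. The genes most like STZ were AT2G41640 (r = 0.95), AT5G10695, AT4G20860, AT1G23710, VPS2.1, AT5G11650, AT3G52800 and AT5G17850 (r = 0.92), and none was on the lists. Their MLD differences ran from 0.23 to 0.88 in wild type of the aox1a set, from 1.08 to 3.08 in aox1a, from 2.33 to 7.53 in wild type of the double mutant set and from 0.43 to 4.87 in the double mutant. STZ's own values in these groups were 1.21, 5.47, 7.06 and 5.73, above those of all 8 except in wild type of the double mutant set. In rpoTmp the differences of the 8 genes ran from 0.76 to 3.48, against 4.57 for STZ. This pattern follows from the choice of genes by likeness to STZ. The list itself depends on the measure. Over the 14 groups without the MLD groups of the double mutant set, 2 of the 8 remained among the 8 most alike. With Spearman's rho 5 remained, and after subtracting each set's untreated wild type 1 did.

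The genes most like ORA47 were AT4G27654 (r = 0.99), AT4G27652, AT1G35210, AT1G74450, AT5G66650, AT4G29780, CML23 and AT1G19210 (r = 0.98). CML23 and AT1G19210 were on the lists, as a calmodulin-like gene and as an ERF-list locus. The MLD differences of the 8 were -0.08 to 0.82 in wild type of the aox1a set, 0.06 to 2.42 in aox1a and -0.04 to 0.13 in rpoTmp. In the double mutant set they were 3.01 to 9.08 in wild type and 3.52 to 8.08 in the double mutant. The choice of genes by likeness to ORA47 fixes this pattern. Under MLD in that set, ORA47 and 3 of the 8 had a higher mean in the double mutant than in wild type. The 3 were CML23 (1.76), AT1G19210 (1.36) and, by only 0.04, AT1G35210. The other 5 had a lower mean, with differences down to -1.33 (AT4G29780). The share of all probe sets with a higher mean was not counted, so these numbers are a description. The order of this list is set largely by the MLD groups of the double mutant set, which hold nearly all of ORA47's range: over the other 14 groups, 2 of the 8 remained among the 8 most alike. STZ and ORA47 had an r of 0.79 with each other over 16 groups and of 0.62 over those 14, and neither was among the 8 genes most like the other.

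**Figure D5:**
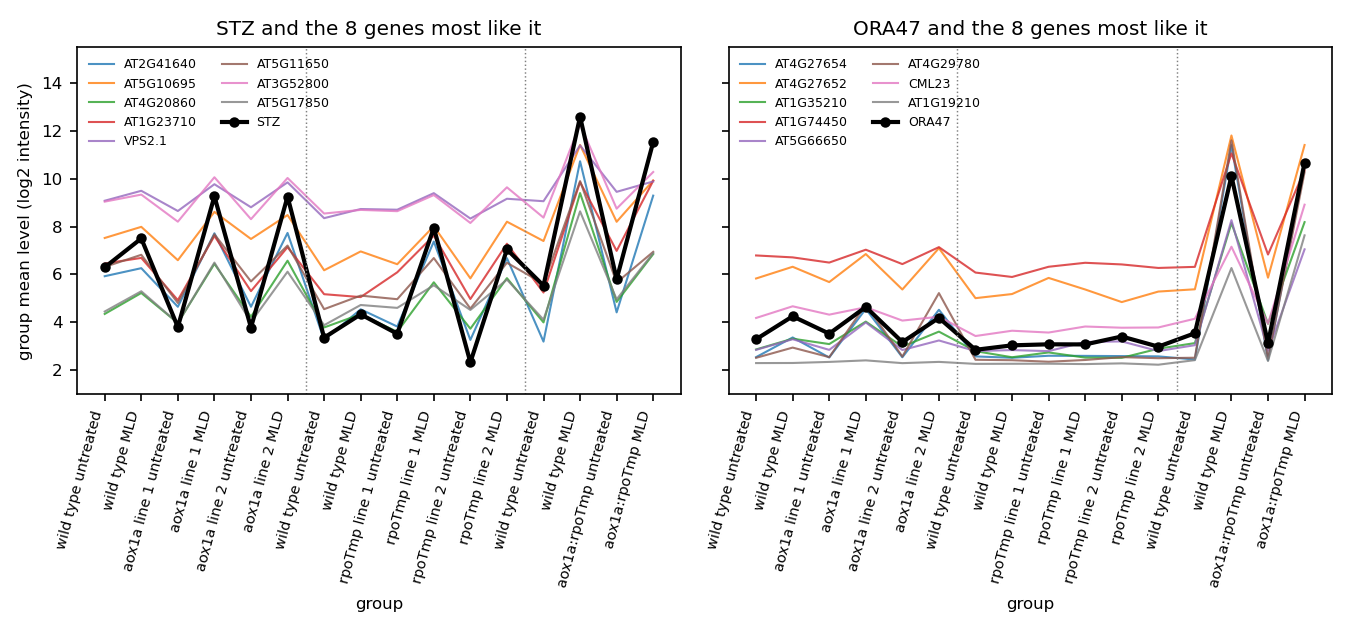
Group mean levels (log2 intensity, y axis) over the 16 groups (x axis) of STZ (left, black) and ORA47 (right, black) with the 8 genes of most similar pattern (coloured lines). The STZ group zigzags with MLD in aox1a and rpoTmp as well as in the double mutant set, while the ORA47 group rises mainly in the MLD groups of the double mutant set. Both patterns follow from the choice of genes by likeness.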

How the data were processed

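Leaf RNA was measured on 40 Affymetrix arrays in 16 groups, assigned by the sample titles. The authors deposited 1 table of linear intensity per probe set. The submitters' processing notes name Affymetrix Expression Console, MAS5, Partek 6.5 and GCRMA, without the role of each. Arrays have no read depth, and their number limits the precision.

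Intensities were put on the log2 scale with no pseudocount. Of 22810 probe sets, 64 control probe sets were left out and 22746 were tested. Platform annotation pairs 13513 probe sets with 1 gene, 503 with several and 8730 with none, and 13436 of the first were matched to the gene table. A separate limma model (version 3.58.1, R 4.3.3) was made for each set, holding a mean per group, with lines of a single mutant averaged, and Benjamini-Hochberg adjustment over all probe sets at 0.05. The fit was tested on simulated data. The comparisons were MLD against untreated within wild type and within the mutant, mutant against wild type in each condition, and the difference of the responses. The members and lists were chosen with earlier results of these data known. The members therefore have no p-value, and the counts and adjusted p-values of listed genes are a description.

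The rule for named genes was STZ and ORA47 in full, up to 3 called genes in each direction from each list and comparison, list members in small counts, and the 8 genes most like each member. Alternatives were quantile normalization, log2(value + 16), a filter of log2 5 on dim probe sets, 1 fit over 40 arrays, each array left out, the replicate number as a block, single lines, and other measures of likeness. No promoter or protein sequences were used here, and the planned motif search was not run.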

Additional observations from a re-analysis of the deposited data

Results flagged for a closer look

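The MLD response of these listed genes differed between mutant and wild type by limma's test of the difference itself (adjusted p under 0.05). Values are the mutant's MLD response minus that of wild type, in log2.

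In the aox1a set, 11 of 31 genes differed. The responses exceeded those of wild type for CML41 (3.46), AT2G28200 (2.34), COR47 (2.19), AT3G16940 (1.65), CML38 (1.64), AT1G67310 (1.45), WRKY6 (1.17) and GI (1.01). They were below those of wild type for PDF1.2 (-4.55) and PDF1.2b (-2.74), which fell further in the mutant, and for CML37 (-0.075) at the dim end of the arrays. The call of CML37 was lost in all 14 fits that left out 1 array.

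In the rpoTmp set, 5 of 31 genes differed, upward for CML41 (3.20), COR47 (2.06), AT3G16940 (1.01) and AT1G67310 (0.92) and downward for PDF1.2 (-5.42).

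In the double mutant set, 21 of 31 genes differed. The response was larger in the mutant for PDF1.2b (2.57), CML23 (1.96) and AT1G19210 (1.40). It was smaller, or turned, for AT3G01830 (-5.73), CML38 (-4.10), CML37 (-2.57) and AT5G39670 (-2.50) of the calcium and touch list, and for the dehydration genes LTI30 (-4.12), COR47 (-3.76) and COR15A (-1.85). It was also lower for OPCL1 (-2.83), JMT (-1.88) and MYC3 (-1.06) of the jasmonate lists, for WRKY53 (-2.76) and WRKY6 (-1.14), and for the ERF-list locus AT1G22810 (-2.81). The upstream-list loci AT3G16940 (-1.72), AT1G67310 (-1.47) and AT4G16150 (-0.34) and the loci of the zinc finger list AT3G60580 (-1.37) and AT3G53600 (-0.86) completed the group. AT3G60580 fell in the mutant from a raised untreated level, with no rise in wild type.

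Groups of 2 or 3 arrays are too small for a test of single outlying arrays, so none was run.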

How the results depend on the processing

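Of the values for STZ under other settings, 257 stayed within the replicate SD of the reported one and 8 moved further, and for ORA47 these numbers were 256 and 9. Many of these settings left out an array of a group that is not in the difference, where the value cannot change. The numbers that stayed are therefore no measure of how firm the values are. Of the counts of listed genes called, 235 stayed within 1.5 times the reported count and 60 did not.

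With log2(value + 16), which shrinks differences of dim signals, the STZ response was 4.37 in aox1a, 3.03 in rpoTmp, 6.63 in wild type and 5.37 in the mutant of the double mutant set, and the excess in rpoTmp was 2.45. The ORA47 response was 5.33 in wild type and 6.06 in the double mutant, with an excess of 0.72, an untreated difference of -0.17, and 0.14 and -0.15 for the untreated difference and the excess in rpoTmp.

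With 1 array left out, ORA47 in the aox1a set ranged from 0.11 to 1.41 for the wild-type difference, -0.29 to 1.01 for the mutant under MLD and -0.35 to 0.95 for the excess, with 0.11, 1.01 and 0.95 without wild-type MLD replicate 3 and the other ends without wild-type MLD replicate 1. STZ in the rpoTmp set ranged from 0.045 to 1.50, 2.64 to 4.09 and 3.08 to 4.53 for the same values. STZ in untreated aox1a ranged from -3.10 to -1.73.

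Reported counts of listed genes called in the aox1a set were 2 for wild type, 5 untreated, 3 under MLD, 20 within the mutant and 11 for the difference of responses. The wild-type count was 0 with the replicate block and with line 1 or line 2 alone, and 0 to 3 with 1 array left out. The untreated count was 2 with quantile normalization, with log2(value + 16) and with line 1, 0 with line 2, and 1 to 7 with 1 array left out. The MLD count was 6 with the filter and in the 40-array fit, 0 with line 2, and 0 to 5 with 1 array left out. Where these counts were 0, limma put 5 to 9 of the 31 at an unadjusted p under 0.05. Line 2 alone gave 11 within the mutant and 0 for the difference of responses, which was 5 with line 1 and 3 to 11 with 1 array left out.

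In the rpoTmp set, wild type had 2 with the filter and in the 40-array fit, and 0 to 1 with 1 array left out. The untreated count was 1 with the filter, in the 40-array fit and with line 1, and 0 to 1 with 1 array left out. The MLD count of 9 was 5 with line 2. The 5 differences of responses became 3 with the replicate block, 0 with line 1 and 2 to 5 with 1 array left out.

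Whether replicate numbers pair the samples was not settled. Deviations of same-numbered arrays from their group means had correlations of -0.366 to 0.531 over 31 pairs in the aox1a set. They were -0.164 to 0.288 over 31 in the rpoTmp set and -0.094 to 0.165 over 18 in the double mutant set. Of these pairs, 10, 6 and 1 were above 0.1. Wild type of the aox1a set, MLD with untreated, gave 0.531, 0.318 and -0.212 for replicates 1, 2 and 3. Arrays with different numbers were not compared, and the deviations in a group of 2 mirror each other. With the replicate block, STZ in rpoTmp under MLD was 2.77 above wild type and the double mutant set had 23 calls in wild type and 24 for the difference of responses.

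Of the 8 genes most like STZ, 1 was shared after subtracting each set's untreated wild type, 5 with Spearman's rho and 2 over the 14 groups without the MLD groups of the double mutant set. For ORA47 these numbers were 5, 5 and 2. The fit over 14 groups and the doubt about untreated wild type replicate 2 of the aox1a set were added after the data were seen.

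Line-alone fits and left-out arrays also reduce the samples. Labelled age follows genotype or treatment within the rpoTmp and double mutant sets and cannot be told apart from them.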
